A study of Rattus norvegicus with 20 samples.

Results

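Krt4, Krt8 and Krt18 are 3 keratin genes among the 32494 genes counted in cultured epithelial cells of EGFP rats, and all 3 were among the 13302 genes that reached 1 CPM (the count of a gene relative to the library size, scaled by TMM) in at least 1 sample. They were taken by name, through the pairing of Ensembl identifier and symbol in the supplementary lists of the study: ENSRNOG00000032332 for Krt4, ENSRNOG00000009779 for Krt8 and ENSRNOG00000047393 for Krt18. RNA was sequenced from cells of 5 tissues, before they were transplanted into skin and after they were recovered from it, with 2 samples in each of the 10 groups (20 in all). The question behind the design was how far cells of epithelia that bear no hair keep or lose their own gene expression after a stay in hairy skin, with whisker follicle cells as the reference.

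All donors were Sprague-Dawley rats of the green line SDTgN (act-EGFP)obsCZ-004, in which every cell carries EGFP. The donors were aged PN57 (postnatal days) for the whisker, PN137 for the thymus, PN200 for the trachea and the vagina, and PN201 for the bladder, of which the dome was used. Cells of all groups were grown on irradiated mouse 3T3-J2 feeder cells and sorted for EGFP before RNA extraction. For the recovered groups, the cells had first been placed in a newborn mouse skin preparation on the back of athymic nude mice, and were then dissociated from the graft and cultured again. The whisker cells were clone 7 before and subclone 14 after transplantation, so that this pair compares a clone with a subclone. The thymic cells before transplantation carry the labels of both a bulk culture and clone 9, and the recovered ones are bulk stock 907. Nothing says that the 2 samples of a group came from separate animals or grafts, so the p values measure the spread between these samples, which may be technical. In bulk samples such as these, fewer cells expressing a gene and less RNA per cell cannot be told apart.

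Keratins form the intermediate filaments of epithelial cells, always as pairs of a type I and a type II chain. Krt8 (type II) and Krt18 (type I) are partners, and are the first keratins of the embryo and the main pair of simple, single-layered epithelia such as glands and the lining of ducts. Krt4 (type II) is known from the suprabasal layers of wet stratified linings such as the oral cavity, the oesophagus and the vagina, where its partner is Krt13. Hairy skin uses neither pair as its main one: its basal cells make Krt5 and Krt14 and its suprabasal cells Krt1 and Krt10. Of the keratin genes, only Krt4, Krt8, Krt10, Krt18 and Krt19 are paired with an identifier in the lists used here, so Krt13 is not analysed here.

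In the RefSeq annotation of the rat assembly GRCr8 all 3 genes lie on chromosome 7, within the keratin cluster. Krt8 and Krt18 are neighbours with 0 protein-coding genes between them, and 2 keratin genes (Krt78 and Krt79) lie between Krt4 and Krt8. The 250 bases before each annotated start site are shown so that the start regions of the partner genes, which were called lower together in 3 of the tissues without hair, can be set beside that of Krt4. They were read on the gene's own strand, at chr7:134930714-134930963 (minus strand) for Krt4, chr7:135010340-135010589 (minus strand) for Krt8 and chr7:135035918-135036167 (plus strand) for Krt18, and capitals mark the motifs found.
Krt4: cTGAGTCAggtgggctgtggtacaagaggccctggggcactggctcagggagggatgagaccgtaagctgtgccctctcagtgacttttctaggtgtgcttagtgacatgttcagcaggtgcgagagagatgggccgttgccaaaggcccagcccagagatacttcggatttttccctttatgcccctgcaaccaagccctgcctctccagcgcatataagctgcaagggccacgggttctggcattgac
Krt8: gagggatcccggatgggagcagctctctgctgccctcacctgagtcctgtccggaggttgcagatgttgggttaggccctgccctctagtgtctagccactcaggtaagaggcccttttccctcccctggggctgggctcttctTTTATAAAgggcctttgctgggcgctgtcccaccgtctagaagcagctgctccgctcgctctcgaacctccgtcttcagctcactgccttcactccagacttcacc
Krt18: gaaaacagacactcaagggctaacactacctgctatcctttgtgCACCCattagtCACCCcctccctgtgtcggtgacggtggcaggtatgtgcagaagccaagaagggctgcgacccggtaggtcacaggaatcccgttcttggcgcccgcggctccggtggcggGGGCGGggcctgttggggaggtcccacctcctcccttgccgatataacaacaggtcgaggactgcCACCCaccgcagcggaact
The motifs TATAAA (the TATA box), CCAAT (the box of that name), GGGCGG (the GC box), CACCC (known from sites of Klf factors), TGANTCA (AP-1, its own reverse complement) and GGAAG (the core of many ETS sites) were searched on both strands of the 300 bases from 250 before to 50 after the start, in 33469 promoters of the table. For Krt8, TATAAA had 2 matches, which overlap on opposite strands between bases -106 and -99 from the start (14.2% of all promoters had a match), whereas Krt4 and Krt18 had 0. Krt18 alone of the 3 had GGGCGG, 1 match at -84 to -79 (33.1% of promoters), and it had 3 matches of CACCC, which Krt8 had once, after its start at 10 to 14 (54.9% of promoters). Krt4 had a TGANTCA match at -249 to -243, and Krt8 had one just after its start (7.33% of promoters). Krt18 had 1 CCAAT match, starting at its first transcribed base (37.5% of promoters), and none of the 3 genes had GGAAG (70.1% of promoters). The matches are a description of these letters only.

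Gene counts summed to 20723083 in the shallowest and 29824855 in the deepest sample, and 3 counts, the smallest level taken as shown, corresponded to 0.0990 to 0.143 CPM (counting error only). Alignments to several places, 11601894 to 19374286 in a sample, are not in these counts. The 2 samples of a group differed over all genes most in the bladder and thymus groups before transplantation, with a mean chi-square per gene of 35.1 and 44.0, against 2.51 to 10.1 in the other 8 groups (counting error alone gives values near 1). RefSeq lists 7 further copies named after Krt18 (6 pseudogenes and Krt18l1) and 1 after Krt8, so reads that these share with the genes are missing and the levels of Krt18 in particular are uncertain. Among markers of the tissues, Upk1b, a uroplakin of the bladder lining, was at 167 and 191 CPM in bladder cells before transplantation but also at 164 and 124 CPM in thymic cells and at a mean of 131 CPM in tracheal cells of that round, and Foxa1 was highest in bladder (128 and 74.3 CPM). Aire, the only thymic marker with an identifier, was at 0.278 and 0.373 CPM in thymic cells before and at 0.170 and 0.165 CPM after transplantation. It was higher in every vaginal and whisker sample (0.703 CPM or more), so it did not mark thymic cells here. For trachea no marker had an identifier. Esr1, the oestrogen receptor, was highest in vaginal cells before transplantation (20.6 and 17.1 CPM).

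**Figure D1:**
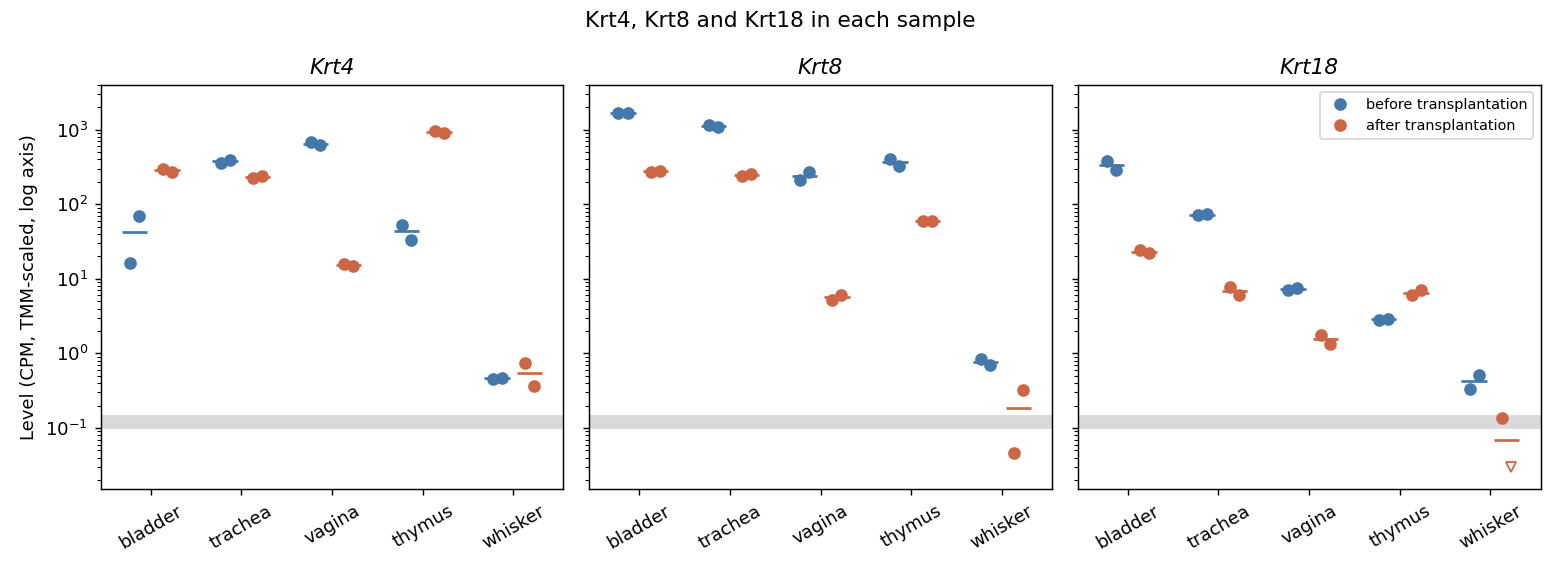
Levels of Krt4, Krt8 and Krt18 in each of the 20 samples, in TMM-scaled CPM on a log axis, by tissue, before (blue) and after transplantation (red). Points are samples, lines are means of 2, the grey band is the level of 3 counts, and the open triangle is the sample with 0 reads. All 3 genes lay below 1 CPM in every whisker sample, and Krt8 was lower after transplantation in each tissue.

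Krt4 rose in bladder and thymic cells, fell in vaginal cells and was not called in tracheal and whisker cells. In bladder cells Krt4 was at 16.2 and 69.6 CPM before and at 302 and 272 CPM after transplantation. Both recovered samples lay above both earlier ones, although the earlier 2 were far apart. In thymic cells it went from 53.2 and 33.5 to 968 and 910.4 CPM, which made the recovered thymic cells the group with the most Krt4 of all 10. In vaginal cells it went the other way, from 683 and 622 to 15.8 and 14.8 CPM. On the log2 scale the change by limma was 3.13 in bladder (SE 0.37, adjusted p = 2.16e-06), 4.47 in thymus (SE 0.36, adjusted p = 5.37e-08) and -5.42 in vagina (SE 0.42, adjusted p = 4.29e-08). Calls required a 2-fold difference or more together with an adjusted p below 0.05. Of all genes tested, 10.1% were called higher after transplantation in bladder, 8.49% in thymus and 4.25% in vagina, and 7.53% were called lower in vagina. The rise in bladder cells depended in size on the uneven earlier pair: it was 2.03 without the first and 4.14 without the second of them. The earlier thymic pair, which was also discordant over all genes, mattered less, with a rise of 4.79 without its first and 4.13 without its second sample, both called.

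In tracheal cells Krt4 was at 363 and 396 CPM before and 229 and 238 CPM after transplantation. The groups did not overlap, but the value of -0.70 on the log2 scale did not pass the test (SE 0.33; limma, adjusted p = 0.105). In whisker cells Krt4 was close to the limit of detection, with 11 and 10 reads before and 16 and 9 reads after transplantation, and the change of 0.15 (SE 1.95, limma adjusted p = 0.978) was far within its error. The counting interval of the after-to-before ratio in whisker cells ran from 0.629 to 2.20 (95%, exact binomial, counting error only). Averaged over the 4 tissues other than whisker, the change of Krt4 was 0.37 (SE 0.19, limma adjusted p = 0.103), a mean of 2 rises and 2 negative values.

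Krt8, the type II chain of simple epithelia, fell in each of the 4 tissues other than whisker. In bladder cells, where it was highest, it went from 1656 and 1700.1 to 276 and 281 CPM. In tracheal cells it went from 1147 and 1095 to 242 and 257 CPM. In both tissues the recovered samples lay close together and well below the earlier ones, at a level that still exceeded that of any whisker sample by a wide margin. Thymic cells went from 411 and 331 to 59.6 and 59.9 CPM. Vaginal cells showed the deepest fall, from 212 and 274 to 5.19 and 6.13 CPM. By limma, Krt8 changed on the log2 scale by -2.59 in bladder cells (SE 0.12, adjusted p = 2.82e-11), by -2.17 in tracheal cells (SE 0.12, adjusted p = 9.11e-10), -2.63 in thymus (SE 0.12, adjusted p = 8.23e-11) and -5.40 in vagina (SE 0.19, adjusted p = 4.56e-12). The share of all genes called lower was 11.0% in bladder, 8.04% in trachea and 6.89% in thymus. The mean change over these 4 tissues was -3.20 (SE 0.07, limma adjusted p = 7.1e-15), a fall to 0.109 of the earlier level, where 6.97% of genes were called lower and 3.91% higher.

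Krt18, the type I partner, fell with Krt8 in bladder, tracheal and vaginal cells and rose in thymic cells. In bladder cells it went from 379 and 290.0 to 24.1 and 22.3 CPM. In tracheal cells it went from 71.8 and 73.5 to 7.70 and 6.06 CPM. In both tissues the recovered samples lay far below the earlier ones. In vaginal cells Krt18 was low already, at 7.07 and 7.58 CPM, and reached 1.76 and 1.36 CPM. Thymic cells stood apart: with 2.78 and 2.94 CPM they had the least Krt18 of the 4 tissues before transplantation, and 6.07 and 7.07 CPM after it, with no overlap. The limma values for Krt18 were -3.84 in bladder cells (log2, SE 0.13, adjusted p = 1.42e-12), -3.43 in tracheal cells (SE 0.18, adjusted p = 5.16e-10), -2.24 in vagina (SE 0.32, adjusted p = 4.14e-05) and 1.20 in thymus (SE 0.27, adjusted p = 0.00176). The mean over the 4 was -2.07 (SE 0.12, limma adjusted p = 4.38e-10). In the trachea 4.39% of all genes were called higher.

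In whisker cells both partners were scarce from the start. Krt8 had 20 and 15 reads before and 1 and 8 reads after transplantation, and Krt18 had 8 and 11 reads before and 3 and 0 after. Both were called lower, at -2.31 (SE 0.80, limma adjusted p = 0.0428) for Krt8 and -2.96 (SE 0.96, limma adjusted p = 0.0327) for Krt18, in a comparison where 3.83% of genes were called lower and 2.15% higher. These fitted values rest on 9 and 3 reads and depend on the prior count of the fit. The ratio of reads after to before was 0.253 for Krt8 (counting interval 0.107 to 0.537) and 0.155 for Krt18 (0.0294 to 0.528). The call of Krt8 ended without any one of the 4 whisker samples, and also without either earlier bladder or earlier tracheal sample. Without the first recovered whisker sample its change was -1.19 (limma adjusted p = 0.35). The call of Krt18 ended without the second earlier whisker sample (-2.67, limma adjusted p = 0.115) and without the second recovered one (-1.43, adjusted p = 0.33).

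**Figure D2:**
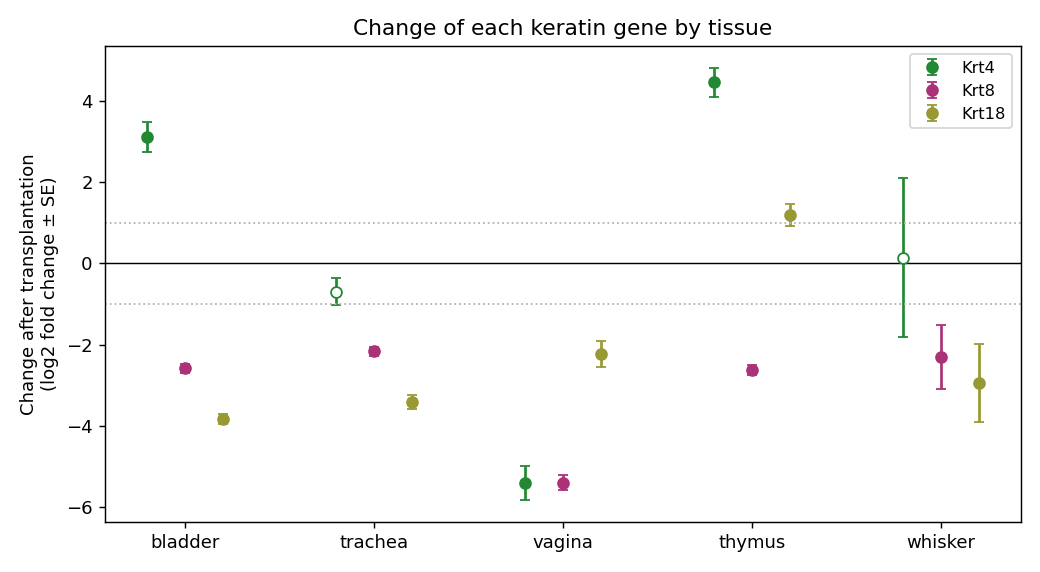
Log2 fold change after transplantation of Krt4, Krt8 and Krt18 in each tissue, with standard errors from limma voom. Filled points were called, open ones not, and dotted lines mark a fold change of 2. Krt8 lies below 0 in all 5 tissues (the whisker value rests on few reads), Krt4 lies above 0 in bladder (3.13) and thymus (4.47) and at -5.42 in vagina, and Krt18 is above 0 only in thymus (1.20).

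Other markers moved in the same samples. In vaginal cells, where all 3 keratins fell, Esr1 went from 20.6 and 17.1 to 0.754 and 0.696 CPM, Upk1b from 36.3 and 39.8 to 0.377 and 0.522 CPM, and Tfap2b, a marker on the whisker follicle list, from 0.0382 and 0.0443 to 8.42 and 8.14 CPM. In whisker cells before transplantation Tfap2b was at 35.3 and 32.9 CPM. It was the only whisker follicle marker with an identifier of 6 listed. After transplantation it had 0 and 0 reads in bladder and in tracheal cells, and 1 and 1 in thymic cells. In bladder and tracheal cells, where Krt8 and Krt18 fell, the summed level of the 4 fibroblast markers with an identifier (Col1a1, Col3a1, Col6a3 and Dcn, of 8 listed), each called lower there, went from 265 and 203 to 31.2 and 28.1 CPM in bladder and from 281 and 288 to 47.0 and 39.7 CPM in trachea. In thymic cells 3 of the 4 were called higher, with sums of 21.9 and 22.5 CPM before and 41.8 and 45.6 CPM after. Of all genes, 11.0% were called lower in bladder, 8.04% lower in trachea and 8.49% higher in thymus. Identifiers of markers come only from lists of genes that differed from whisker cells in these same samples. In vaginal cells, where Krt8 and Krt18 also fell, none of the 4 fibroblast markers was called. Their sums there were 28.1 and 33.4 CPM before and 24.0 and 30.0 CPM after. In whisker cells none of the 4 was called either, with sums from 25.3 to 49.1 CPM. None of the 4 was at 0 in any sample. Markers of endothelium had no identifier. Col17a1, a collagen of basal cells, was at 236 and 483 CPM in bladder cells before and at 2323 and 2374 CPM after transplantation. It was the only basal marker with an identifier of 7 listed. It was not called in trachea (log2 fold change 0.47), thymus (0.71), vagina (0.04) or whisker cells (-0.07). Cd68, the only leukocyte marker with an identifier of 5 listed, went from 14.7 and 13.4 to 55.1 and 52.9 CPM in bladder and from 12.2 and 11.1 to 61.9 and 55.2 CPM in trachea, but from 60.2 and 62.6 to 16.6 and 14.7 CPM in vagina. Merkel cells of the skin also carry Krt8 and Krt18, and of 5 Merkel and neuroendocrine markers listed, Isl1 and Piezo2 had an identifier. Piezo2, a mechanosensitive channel, was called lower in vagina (11.2 and 10.5 to 3.06 and 3.34 CPM), where Krt8 and Krt18 both fell. In thymus, where Krt18 rose but Krt8 fell, Piezo2 was called higher (0.0794 and 0.0828 to 3.10 and 3.47 CPM). The thymic samples before transplantation had 2 and 2 reads of Piezo2, below the 3 counts taken as shown. Piezo2 was also called lower in whisker cells (20 and 25 to 4 and 6 reads), but was not called in bladder or trachea. Isl1 was not called in any tissue. The part of these shifts in the keratin changes was not tested.

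The tissues differed in how far each keratin moved. The difference between 2 tissues in the change after transplantation was tested for each of the 10 pairs of tissues as an interaction. Among the 6 pairs without whisker, 6 of 6 were called for Krt4, 5 of 6 for Krt18 and 3 of 6 for Krt8. The shares of all genes called in these pairs were 12.6% for bladder against trachea, 25.4% for bladder against vagina, 23.3% for bladder against thymus, 17.2% for trachea against vagina, 17.5% for trachea against thymus and 20.4% for vagina against thymus. The 3 called differences of Krt8 were those of vagina with bladder, trachea and thymus. Between bladder and thymus its changes differed by 0.04 on the log2 scale (SE 0.17, limma adjusted p = 0.879). For Krt18 the bladder and tracheal changes differed by -0.41 (SE 0.22, limma adjusted p = 0.171), and the other 5 pairs were called. The largest of all was that of Krt4 between vagina and thymus, -9.89 (SE 0.55, limma adjusted p = 9.08e-10). Against whisker, where counts are few, 1 of 4 was called for each gene: vagina for Krt4 and for Krt8, and thymus for Krt18. That of Krt4 in vagina (limma adjusted p = 0.0495) was lost under 4 of 9 other settings. It also ended in 18 of 20 fits with a sample left out, with differences of -6.06 to -5.09. Krt4 in thymus against whisker (4.32, SE 1.99, limma adjusted p = 0.0883) was called under 3 of 9, and Krt4 in bladder against whisker (2.98, SE 1.99, limma adjusted p = 0.234) under 1 of 9. There, 21.3% of genes were called for bladder, 13.2% for trachea, 11.5% for vagina and 18.6% for thymus. Comparisons of tissues share samples with each other, and the call of Krt4 between bladder and thymus (-1.34, SE 0.52, limma adjusted p = 0.041) ended in 15 of 20 fits with a sample left out, for one without the second earlier bladder sample (-0.33, adjusted p = 0.291).

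Ranked by level, the groups followed another order for each gene. For Krt4 it ran from recovered thymic cells (939 ± 40.9 CPM, SD, n = 2) over vaginal (652 ± 43.6) and tracheal cells (379.7 ± 23.2) before transplantation, recovered bladder (287 ± 21.3) and recovered tracheal cells (233 ± 6.51) to thymic (43.4 ± 13.9) and bladder cells (42.9 ± 37.7) before transplantation and recovered vaginal cells (15.3 ± 0.704). The thymic and bladder samples before transplantation overlapped in Krt4, as did both whisker groups (0.463 ± 0.00792 CPM before and 0.553 ± 0.260 CPM after). For Krt8 it was bladder (1678 ± 31.1), trachea (1121 ± 36.4) and thymus (371 ± 56.5) before transplantation, recovered bladder (278 ± 3.85), recovered trachea (249 ± 10.8), vagina before transplantation (243 ± 43.7), recovered thymus (59.7 ± 0.220) and recovered vagina (5.66 ± 0.658). Only the recovered tracheal and the earlier vaginal samples overlapped in that order. For Krt18 it was bladder (334 ± 62.9) and trachea (72.6 ± 1.25) before, recovered bladder (23.2 ± 1.27), vagina before (7.32 ± 0.356), recovered trachea (6.88 ± 1.16), recovered thymus (6.57 ± 0.702), thymus before (2.86 ± 0.115) and recovered vagina (1.56 ± 0.284). The vaginal, recovered tracheal and recovered thymic groups overlapped with their neighbours in this order.

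Differences between the 4 tissues other than whisker were tested within each round. Before transplantation 4 of 6 pairs were called for Krt4, 4 of 6 for Krt8 and 6 of 6 for Krt18. For Krt4 bladder and thymus, not called (-0.37, SE 0.39, limma adjusted p = 0.427), were called without the second earlier bladder sample (-1.38, adjusted p = 3.41e-05). Bladder held more Krt18 than trachea (log2 difference 2.19, SE 0.11, limma adjusted p = 2.46e-10), trachea more than vagina (3.31, SE 0.17, adjusted p = 2.18e-10) and vagina more than thymus (1.35, SE 0.27, adjusted p = 0.000646). The shares of all genes called before transplantation were 15.5% for bladder against trachea, 25.6% against vagina and 27.2% against thymus, 18.8% for trachea against vagina, 20.3% against thymus, and 17.0% for vagina against thymus. After recovery 5 of 6 pairs were called for each gene. Krt8 was not called between bladder and trachea in either round, with 0.58 before (SE 0.12, limma adjusted p = 0.000669, under the fold threshold) and 0.16 after (SE 0.12, adjusted p = 0.257). Between vagina and thymus Krt8 was under the fold threshold before (-0.61, SE 0.12, limma adjusted p = 0.000362) and was called after (-3.39, SE 0.19, adjusted p = 4.93e-10). Krt18 in recovered tracheal and thymic cells differed by 0.03 (SE 0.22, limma adjusted p = 0.917), where it had differed by 4.66 before transplantation (SE 0.24, adjusted p = 1.75e-10). The background shares after recovery were 18.3% for bladder against trachea, 19.7% against vagina and 16.4% against thymus, 13.7% for trachea against vagina, 18.0% against thymus, and 19.2% for vagina against thymus.

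The 3 genes were on the study's list of genes shared by the comparisons with whisker cells, a list made on these same samples, so their direction there is a description and no independent evidence. Each was higher than in whisker cells of the same round in 4 of 4 tissues before and 4 of 4 after transplantation. These 8 comparisons share the whisker samples of their round. Before transplantation the share of all genes called higher was 18.2% in bladder, 15.4% in tracheal, 9.90% in vaginal and 12.5% in thymic cells, and after it 13.5%, 9.83%, 5.68% and 10.4%. The smallest margins after recovery were those of vaginal cells: Krt4 had 800 reads there against 25 in whisker cells, a ratio of 28.1 (counting interval 18.9 to 43.6), Krt8 had 300 against 9, a ratio of 29.2 (15.2 to 64.6), and Krt18 had 81 against 3, a ratio of 23.7 (7.82 to 117). Before transplantation the same ratios in vaginal cells were 1415 (925 to 2286), 312 (225 to 449) and 17.5 (11.0 to 29.3). In recovered thymic cells Krt4 reached a ratio of 1727 (1170 to 2669; 94.2 before), whereas Krt8 in recovered bladder cells stood at 1428 (752 to 3125; 2174 before). The call of Krt4 in recovered vaginal cells (log2 difference 4.83, SE 1.40, limma adjusted p = 0.0104) ended when either recovered whisker sample was left out (adjusted p of 0.0697 without the first and 0.0858 without the second). Against whisker cells before transplantation, Krt8 in recovered vaginal cells was higher by 2.85 and Krt18 by 1.84 on the log2 scale, in place of 5.16 and 4.80 against recovered whisker cells.

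Krt8 and Krt18 assemble with each other in equal amounts in the filament, so their reads were also set against each other within each library, which needs no scaling. The ratio is of reads and is not corrected for transcript length or for the uncounted reads of Krt18 copies, so only its differences between samples can be read. In bladder cells there were 4.37 and 5.86 Krt8 reads per Krt18 read before and 11.4 and 12.6 after transplantation. In tracheal cells there were 15.98 and 14.9 before and 31.3 and 42.3 after. In both tissues the ratio was higher after transplantation, by 2.37 times and 2.36 times in the geometric mean, and the samples did not overlap. Vaginal cells went the other way, from 29.9 and 36.1 to 2.93 and 4.47, and so did thymic cells, from 147 and 112 to 9.78 and 8.46. The recovered cells of the 4 tissues therefore ranged from 2.93 to 42.3 reads of Krt8 per read of Krt18, and the earlier ones from 4.37 to 147. The mean change of the log2 ratio was -1.13 over these 4 tissues (exact permutation test within tissues, two-sided, n = 16 samples, p = 0.137) and -0.79 over all 5 (n = 20 samples, p = 0.295). Of the 4 tissues 2 lay above and 2 below 0, and the whisker value (0.58) lay above it. Within 1 tissue 2 samples against 2 cannot go below p = 0.33 by an exact permutation test. In whisker cells the ratio was 2.41 and 1.35 before and 0.429 and 17.0 after (0.5 reads added to each count), on few reads, and the 2 recovered samples lay on either side of the earlier ones.

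**Figure D3:**
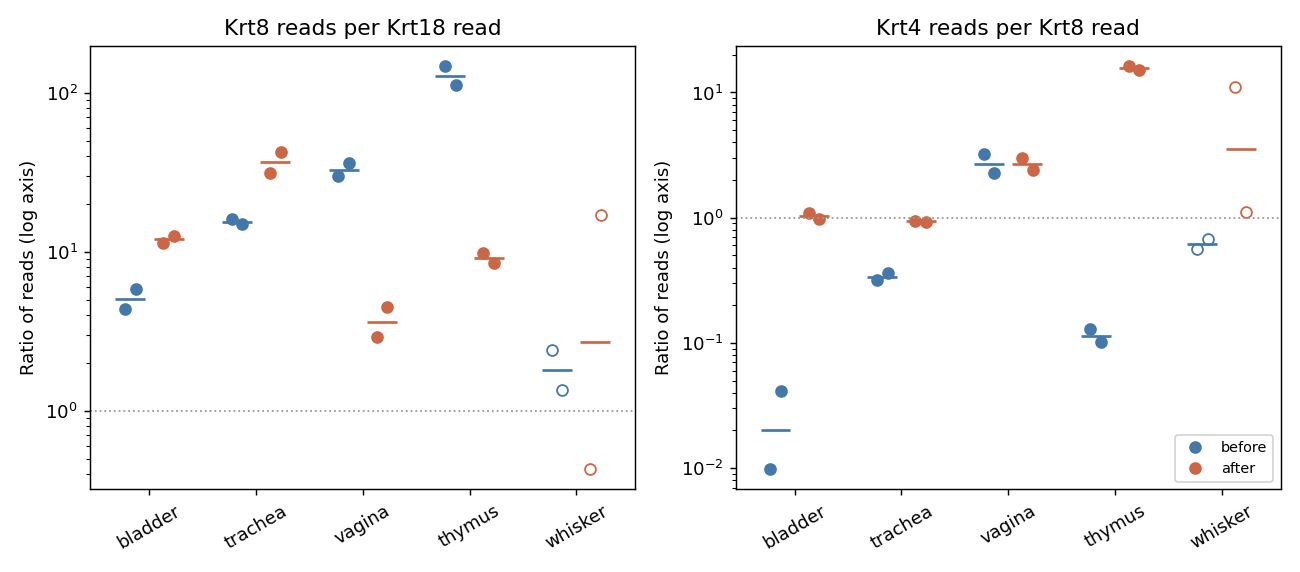
Reads of Krt8 per read of Krt18 (left) and of Krt4 per read of Krt8 (right) in each sample, on log axes, with geometric means as lines. Blue is before and red after transplantation, open points are whisker samples with few reads. After transplantation the left ratio is higher in bladder and trachea and lower in vagina (3.62) and thymus (9.10), and the right ratio is 2.70 in vaginal cells in both rounds and 0.114 before and 15.7 after in thymic cells.

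The balance of the 2 type II chains, Krt4 and Krt8, was set side by side after their values had been seen, and is given without a test. Krt4 reads per Krt8 read in the geometric mean went from 0.0200 to 1.03 in bladder cells, from 0.114 to 15.7 in thymic cells and from 0.339 to 0.936 in tracheal cells, with no overlap in any of the 3. In vaginal cells the ratio was 3.22 and 2.27 before and 3.02 and 2.41 after transplantation, so that the 42.8-fold fall of Krt4 and the 42.3-fold fall of Krt8 left it where it was (2.70 in both rounds). Across the 20 samples log2 CPM of Krt8 and Krt18 correlated with r = 0.89, and without the whisker samples with r = 0.78 (n = 16). Krt4 followed Krt8 with r = 0.79 over the 20 samples but 0.22 over the 16, and Krt18 with 0.65 and 0.07. These are descriptions over samples that come in pairs of 1 group, and those of Krt4 over 20 samples rest on the low whisker values.

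Of the other keratins with an identifier, Krt19, a further type I simple keratin that can also pair with Krt8, fell in bladder cells by limma (-1.06, SE 0.13, adjusted p = 2.12e-06), trachea (-3.36, SE 0.14, adjusted p = 8.39e-11) and vagina (-5.18, SE 0.43, adjusted p = 1e-07). In thymic cells it went from 21.2 and 14.6 to 37.0 and 33.1 CPM, a change of 0.99 (SE 0.16, limma adjusted p = 0.000119) just under the fold threshold. The 2 type I simple keratins thus were both at their higher value in recovered thymic cells, while Krt8 was lower there. Krt10, the type I keratin of suprabasal epidermis, rose in bladder from 1.57 and 1.64 to 235 and 223 CPM (log2 fold change 7.14, SE 0.30, limma adjusted p = 1.27e-11), in vagina by 2.52 (SE 0.12, adjusted p = 9.64e-11) and in thymus by 3.32 (SE 0.34, adjusted p = 7.16e-07), and was at 0.948 to 1.27 CPM in the 4 tracheal samples. In whisker cells it was at 1716 and 1351 CPM before and 821 and 917 CPM after transplantation.

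Keratin filaments are anchored to desmosomes, the cell junctions built from desmogleins (Dsg) and desmocollins (Dsc) and linked by desmoplakin (Dsp) and envoplakin (Evpl). Of 16 such genes listed, 8 had an identifier. Identifiers come only from lists of genes that differed from whisker cells in these same samples, so the counts are no independent evidence of a direction. In bladder cells 6 of 8 rose and none fell (median log2 fold change 2.54, against 0.01 over all genes), where 10.1% of all genes were called higher. Among these 6, Dsg1 started from 3 and 1 reads and Dsc1 from 2 and 1 reads, so the size of their rises is uncertain. In vagina 5 rose and 1 fell (median 1.13, against -0.01), where 4.25% of all genes were called higher and 7.53% lower. In thymus 4 rose (median 1.13, against 0.00, where 8.49% of all genes were called higher). In trachea 3 rose (0.64, against 0.02, with 4.39% of all genes), of which Dsc1 had 2 and 4 reads before and 7 and 13 after. Dsc3, a desmocollin of stratified epithelia, rose in each of the 4, by 2.81 in bladder (SE 0.09), 2.06 in trachea (SE 0.09), 1.25 in vagina (SE 0.09) and 1.72 in thymus (SE 0.09). Dsg3 rose in bladder by 3.42 (SE 0.10), from 143 and 160 to 1647 and 1591 CPM. Dsc2, the more general desmocollin, fell in vagina by 1.02 on the log2 scale (SE 0.14). In whisker cells 1 of 8 fell, Dsc1, and none rose, where 3.83% of all genes were called lower.

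Of 20 genes listed for simple and glandular epithelium, 10 had an identifier under the same condition. In bladder 1 fell and 1 rose (median 0.22), where 11.0% of all genes were called lower and 10.1% higher, and in thymus 1 rose (0.72), where 8.49% of all genes did, so that these counts were near the background. In trachea 2 fell and 1 rose (-0.38; 8.04% and 4.39% of all genes), in vagina 4 fell (-0.73; 7.53%) and in whisker 1 fell (-0.09; 3.83%). The gene that fell where Krt8 and Krt18 both fell was Cldn7, a claudin of tight junctions, from 60.2 and 67.3 to 5.52 and 5.04 CPM in bladder, from 59.5 and 58.3 to 0.376 and 0.255 CPM in trachea, and from 5.35 and 5.71 to 0.0419 and 0 CPM in vagina. In whisker cells, where both partners were also called lower, Cldn7 was called lower on 5 and 7 reads before and 0 and 0 reads after. In thymic cells it was at 2.34 and 1.86 CPM before and 4.16 and 3.40 CPM after. Epcam and Cdh1, general adhesion molecules of epithelial cells, changed by less than 2-fold in each of the 5 tissues. Elf5, an ETS factor of glandular epithelia, rose in bladder (4.06, SE 0.37), trachea (1.08, SE 0.39) and thymus (2.13, SE 0.24).

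**Figure D4:**
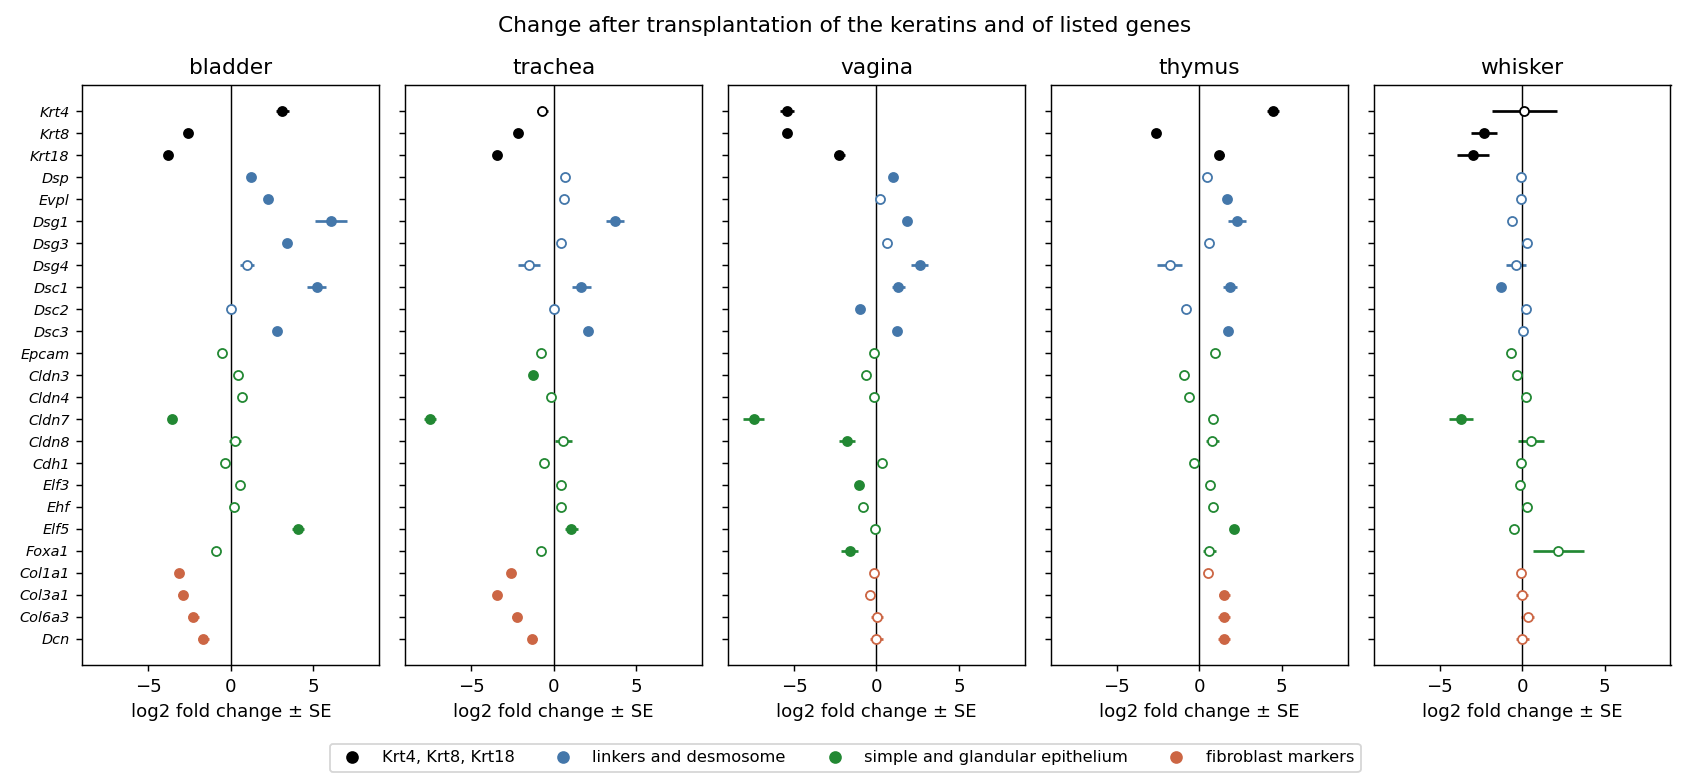
Log2 fold change after transplantation (with SE, limma voom) of the 3 keratins (black), of 8 linker and desmosome genes (blue), 10 genes of simple and glandular epithelium (green) and 4 fibroblast markers (orange), 1 panel per tissue. Filled points were called. In bladder 6 of the 8 blue points are called above 0 while Krt8 and Krt18 lie below it. Of these 6, Dsg1 and Dsc1 start from 3 reads or fewer per sample. All 4 orange points are called below 0 in bladder and trachea, and none is called in vagina.

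The genes whose pattern over the 20 samples was most like that of each keratin were named by the correlation of log2 CPM among genes with a usable symbol and at least 10 CPM in their highest group. All carry a symbol because they were listed for a difference from whisker cells. For Krt8 the nearest were Akap12 (r = 0.984), a scaffold protein of kinase A signalling, Galnt12 (0.962), Aif1l (0.959), Sh3tc1 (0.954) and Shroom1 (0.953). Akap12 had 1595 and 1412 CPM in bladder cells before and 551 and 508 after, and 440.2 and 548 CPM in vaginal cells before and 11.0 and 12.3 after. For Krt18 they were Gne (0.975), an enzyme of sialic acid synthesis, B4galt5 (0.974), Podxl (0.957), Arhgap6 (0.955) and Lcp1 (0.949). Podxl, a sialomucin of the cell surface, went from 66.8 and 45.3 to 4.71 and 4.56 CPM in bladder and from 26.0 and 26.2 to 2.58 and 2.99 CPM in trachea. In thymic cells, where Krt18 rose, Podxl went from 0.833 and 0.663 to 0.382 and 0.462 CPM. Gne went from 19.1 and 17.0 to 12.9 and 11.3 CPM there. B4galt5 was nearly flat in thymic cells, at 104 and 101 CPM before and 108 and 111 CPM after. Arhgap6 had 10 and 6 reads there before and 10 and 16 after, too few to read a direction from. Lcp1 went from 0.953 and 0.787 to 2.04 and 2.44 CPM. For Krt4 they were Ggt1 (0.948), Ifi47 (0.945), Irgm (0.934), Pi15 (0.923) and Sp140 (0.922). Ifi47, an interferon-induced GTPase, had 5.95 and 5.55 CPM in thymic cells before and 37.2 and 37.2 after, and 29.2 and 26.8 CPM in vaginal cells before and 3.73 and 4.94 after. In bladder cells, where Krt4 also rose, Ifi47 had 19.7 and 11.9 CPM before and 22.3 and 20.2 CPM after. With the 16 samples other than whisker, 3 of 5 names were shared for Krt4, 1 of 5 for Krt8 and 3 of 5 for Krt18, and by rank correlation over 20 samples the numbers were the same.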

How the data were processed

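RNA-seq libraries of 20 samples were made by the authors with a stranded mRNA kit. Reads were trimmed (Cutadapt 1.8), aligned to Rnor 6.0 with STAR 2.5.2b and counted per Ensembl gene with Htseq-count 0.6.1, and the authors deposited the raw counts. The 5 rows that name no gene, 41.6% to 46.4% of each file's total, were left out. The filter of 1 CPM or more in any sample was followed by TMM scaling (edgeR 4.0.16) and voom (limma 3.58.1, R 4.3.3), with 1 mean for each group and 10 degrees of freedom left. The Benjamini-Hochberg method was applied to the p values of each comparison separately. The fit was tested on simulated counts. Read ratios used a pseudocount of 0.5 reads and an exact permutation test within tissues. The members and lists were chosen with earlier results of these data known. Named were the members, the listed keratins, linkers, epithelial genes and markers, and the 5 genes most like each member. Identifiers were paired with symbols through 2311 entries of the supplementary lists, which name genes the study called different from whisker cells. Promoters are from RefSeq (GRCr8), in which 3 of 3 members matched by symbol. The alternatives were edgeR's quasi-likelihood test, DESeq2 1.42.0, other scalings, filters and thresholds, fits of only the groups compared, a replicate block, and each replicate left out in turn. The replicate numbers were not taken to pair the samples, since deviations of same-numbered samples correlated between -0.123 and 0.240.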

Additional observations from a re-analysis of the deposited data

Results flagged for a closer look

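The change after transplantation differed between tissues in the 17 tests below, each given as the log2 difference between 2 tissues' changes (first minus second), with limma voom and p values adjusted over all genes. For Krt4 it was 3.83 for bladder against trachea, 8.54 for bladder against vagina, -1.34 for bladder against thymus, 4.72 for trachea against vagina, -5.17 for trachea against thymus, -9.89 for vagina against thymus and -5.56 for vagina against whisker. For Krt8 it was 2.81 for bladder against vagina, 3.24 for trachea against vagina, -2.78 for vagina against thymus and -3.09 for vagina against whisker. For Krt18 it was -1.59 for bladder against vagina, -5.04 for bladder against thymus, -1.18 for trachea against vagina, -4.63 for trachea against thymus, -3.44 for vagina against thymus and 4.16 for thymus against whisker. The largest adjusted p value among them was 0.0495, for Krt4 in vagina against whisker, which rests on 21 and 25 whisker reads. That call ended in 18 of 20 fits with a sample left out. With a sample left out, Krt4 in bladder against thymus ranged from -2.42 to -0.33. The tests against whisker rest on 35 and 9 whisker reads for Krt8 and on 19 and 3 for Krt18. They ranged from -4.21 to -1.89 for Krt8 and from 2.62 to 5.60 for Krt18 with a sample left out. Groups of 2 samples were too small to test for a single sample that stands apart.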

How the results depend on the processing

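Of 522 values of the members' changes under other settings, 511 kept their side of the threshold, and no call reversed direction. Of the 522, 360 came from fits with a sample left out, many of which dropped a sample of neither group compared and so could hardly move. Of 870 values of the differences between tissues in change, 817 kept their side of the threshold. The rise of Krt18 in thymus (1.20) was not called at a log2 fold change of 2. With each replicate left out in turn, the change of Krt8 in whisker cells ranged from -3.52 to -1.19 and lost its call in 8 of 20 fits, and that of Krt18 ranged from -4.41 to -1.43 and lost it in 2, while Krt4 in recovered vaginal against recovered whisker cells ranged from 4.32 to 5.29 and lost it in 2. Fits with 1 sample left in a group assume that it varies like the others. With a replicate block no call of a change or a whisker difference was altered (Krt4 in bladder 3.12), nor with edgeR, DESeq2, other scalings or other filters. The numbers of genes called by edgeR and DESeq2 were within 1.5 times those of limma. Among the differences between tissues in change, Krt4 in vagina against whisker lost its call under both other scalings and both other filters (-5.55 to -5.60), Krt4 in bladder against thymus without a filter and with only the groups compared (-1.33 and -1.37), and Krt18 in trachea against vagina without a filter (-1.19). The mean change of the Krt8 to Krt18 ratio over 4 tissues stayed between -1.21 and -1.05 with samples left out. The ratio of Krt4 to Krt13 was not run. Depth limits what can be said in whisker cells, where each gene had at most 35 reads in a group.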
